A study of Homo sapiens with 6 samples.

Results

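Of the 9277 thymidine glycol (Tg) sites that the double-knockout list held on chromosomes 1 to 22 and X, 4017 (43.3%) lay in new territory, far from any site of the wild-type list. The sites were chosen by position relative to the wild-type list, a measured result: a site was counted when it shared no base with a wild-type site and its midpoint was more than 100 kb from every wild-type midpoint of the same chromosome. A further 2663 double-knockout sites (28.7%) also shared no base with a wild-type site but lay within 100 kb of one, and are called nearby knockout-only sites. The last 2597 (28.0%) overlapped a wild-type site and are called shared. The whole double-knockout list held 9373 sites and the wild-type list 3688, of which 3618 were on chromosomes 1 to 22 and X.

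The study mapped Tg with DPC-Seq in HEK293T cells, a line from human embryonic kidney that expresses the large T antigen of SV40. The libraries comprised 2 labelled libraries of NTHL1-/-,NEIL1-/- cells (double knockout), 2 labelled libraries of wild-type cells, and 1 input library of each genotype. All cells were untreated, and every labelled library, of either genotype, was made by adding NTHL1 protein to fragmented genomic DNA and pulling down the DNA that became linked to it. Each genotype is represented by 1 list of sites with no values per library, so there is no spread between replicates and no difference below was tested. The labels do not say whether the knockout line was 1 clone, and lists of DNA sites hold nothing with which to check cell identity. The knocked-out genes give no check either. NTHL1, on chromosome 16, held 0 sites in new territory, with 5 shared sites and 5 wild-type sites, and NEIL1, on chromosome 15, held no site of any kind.

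Tg forms when the base thymine is oxidised and its ring is saturated, which distorts the DNA helix and can stop a DNA polymerase. NTHL1 and NEIL1 are DNA glycosylases, enzymes of base excision repair that cut an oxidised pyrimidine out of DNA and open the strand for the later steps of repair. NTHL1 forms a covalent intermediate with the DNA it cuts, which DPC-Seq makes permanent by chemical reduction, so a site in a list marks a place where the added enzyme was captured more often than the local background.

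Sequence could be read for sites whose summit, the position with the most reads, fell in a RefSeq promoter window (GRCh38.p14), from 250 bases before to 50 bases after the start of a protein-coding gene. This was so for 9 of 22132 windows (0.0407%), and 16755 of the 22132 lay in new territory. The 9 windows belong to 8 sites in new territory because the divergent genes PIK3R3 and TSPAN1 share 1. The other genes, by q, were DACH1, BCL9, SMCO2, CNKSR3, MARCHF4, SEPTIN9 and KLK14. The 250 bases before the start are shown for the strongest of these whose summit lies before the start and whose window holds the start of no other gene, because these are the members whose own bases can be read. They run 5′ to 3′ on the strand of the gene, and capitals mark the bases within 20 bp of the summit.
DACH1, chr13:71867205-71867454, minus strand: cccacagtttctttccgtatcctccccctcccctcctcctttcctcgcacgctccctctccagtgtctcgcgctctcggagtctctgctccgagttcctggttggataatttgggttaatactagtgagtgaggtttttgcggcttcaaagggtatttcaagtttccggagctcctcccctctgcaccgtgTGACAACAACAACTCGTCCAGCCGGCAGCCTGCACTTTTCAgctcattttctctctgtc
BCL9, chr1:147541251-147541500, plus strand: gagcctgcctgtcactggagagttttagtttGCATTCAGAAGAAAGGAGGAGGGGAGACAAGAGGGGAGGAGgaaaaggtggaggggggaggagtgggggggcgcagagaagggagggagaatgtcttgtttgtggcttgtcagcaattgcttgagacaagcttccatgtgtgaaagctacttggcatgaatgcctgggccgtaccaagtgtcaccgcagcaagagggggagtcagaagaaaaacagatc
SMCO2, chr12:27466598-27466847, plus strand: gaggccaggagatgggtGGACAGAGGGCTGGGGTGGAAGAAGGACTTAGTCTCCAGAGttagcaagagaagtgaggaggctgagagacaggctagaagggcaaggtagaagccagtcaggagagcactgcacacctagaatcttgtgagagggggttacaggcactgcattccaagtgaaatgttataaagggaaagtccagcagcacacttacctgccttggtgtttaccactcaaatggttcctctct
MARCHF4, chr2:216372484-216372733, minus strand: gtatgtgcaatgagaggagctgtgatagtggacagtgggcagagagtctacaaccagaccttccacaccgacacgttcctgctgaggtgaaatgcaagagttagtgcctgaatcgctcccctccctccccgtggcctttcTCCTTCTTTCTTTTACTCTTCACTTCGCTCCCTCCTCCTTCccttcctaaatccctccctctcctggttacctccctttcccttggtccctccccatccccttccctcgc

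The longest run of only purines or only pyrimidines in these bases was 27 in DACH1, 21 in BCL9 and MARCHF4, and 10 in SMCO2. DACH1 encodes a transcriptional cofactor of the retinal determination network, BCL9 a coactivator of β-catenin in Wnt signalling, and MARCHF4 a membrane-bound ubiquitin ligase. The shown strand of DACH1 held 79 T and 36 A in 250 bases, and that of MARCHF4 held 73 T and 39 A. The balance was the other way on the shown strand of BCL9, with 46 T and 70 A, and of SMCO2, with 48 T and 73 A. The same measure in KLK14, the gene of a kallikrein serine protease, was 90 T and 29 A, and 73.6% of its 250 bases were C or T. Thymines are the bases from which Tg forms, and each A on the shown strand pairs with a T on the other. The split was closer to even in the other promoters, with 71 T and 68 A in CNKSR3, a signalling scaffold gene, 64 T and 52 A in PIK3R3, 66 T and 56 A in TSPAN1 and 47 T and 60 A in SEPTIN9. The split over all promoter windows was not computed, so none of these is called unusual.

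Over the whole windows, the 9 promoters had a median GC content of 53.0% (45.3% to 56.3%), and each of them was below the median of 61.3% over the 16755 promoter windows that lay in new territory. They held a median of 4 CpG (0 to 12), beside 20 over all promoter windows in new territory, and 8 of the 9 held fewer than 10 CpG, beside 30.9% there. The longest run of only purines or only pyrimidines had a median of 15 bases, beside 11. That last measure was chosen after the sequences had been seen. Motifs were searched on both strands. A G-quadruplex motif was here 4 runs of at least 3 G with loops of 1 to 7 bases. It was found in MARCHF4 alone, in 30.5% of all promoter windows and in 28.4% of those in new territory. TATAAA was found in SMCO2 alone (9.46% of all windows, 10.4% in new territory). The telomere repeat unit TTAGGG was found in BCL9 alone (8.83% and 8.99%). GGGCGG and TGACNNNGC, the core of the antioxidant response element, were found in 0 of the 9 windows. Of all windows 56.3% and 13.8% held them, and of those in new territory 54.4% and 13.5%. The promoter windows with a summit of a nearby knockout-only site, of a shared site and of a wild-type site numbered 0, 1 and 3. The classes had unlike room, because sites in new territory fall by rule in the 16755 windows there and the others in the rest. They also differ in number of sites, so these counts are not compared.

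Sites in new territory were weaker than shared sites and close to nearby knockout-only sites in fold. Their fold enrichment, the authors' ratio of reads at the summit plus 1 to the caller's background plus 1, which compresses folds most where the background is low, had a median of 4.75 (95% interval of the median 4.72 to 4.78) and ran from 2.29 to 12.9. The median was 4.64 for nearby knockout-only sites and 5.73 for shared sites. Reads at the summit had a median of 15 in new territory (6 to 44), 16 at nearby sites and 23 at shared sites. The backgrounds under these reads had medians of 2.36, 2.79 and 3.19 in the same order, so the sites in new territory stood on the lowest background. Their median width was 358 bp, beside 376 bp at nearby and 593 bp at shared sites. Strength and overlap with wild type go together in this list, so these values describe the members and support nothing.

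**Figure D1:**
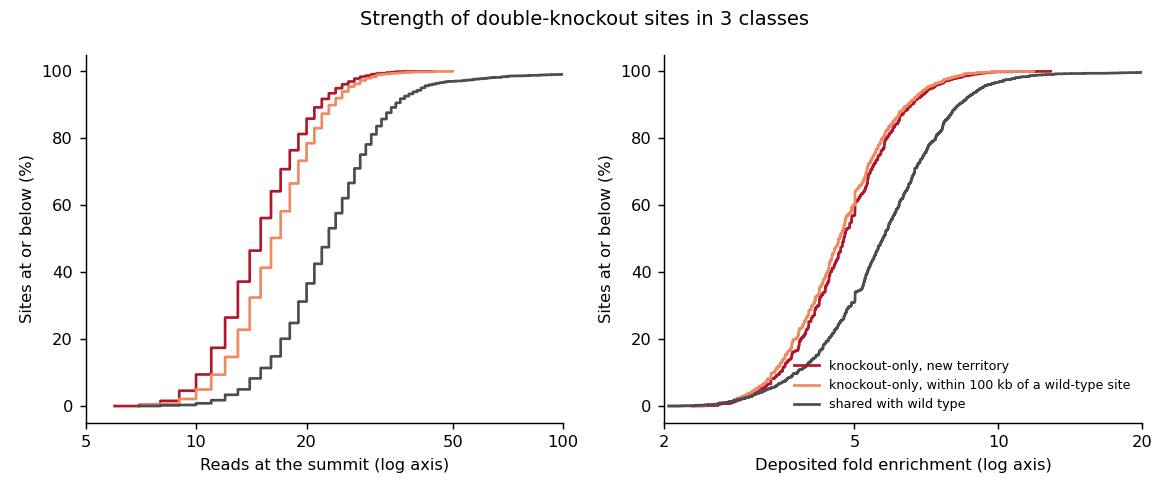
Cumulative share of double-knockout sites (%) by reads at the summit (left) and by the deposited fold enrichment (right), both on log axes, for 4017 knockout-only sites in new territory, 2663 within 100 kb of a wild-type site and 2597 shared with wild type; the axes stop short of the strongest shared sites. The curves of both knockout-only classes run close together, with medians of 15 and 16 reads, and the shared sites lie to the right, with a median of 23 reads.

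The share of double-knockout sites that were in new territory was smaller among stronger sites. In 4 equal groups by q, from the weakest to the strongest, it was 57.1%, 50.8%, 42.4% and 22.9%. New territory thus still held 530 of the 2319 strongest double-knockout sites. The double-knockout data were deeper, with a lowest background of 1.25 reads against 0.739 in the wild-type list, a ratio of 1.69, so reads and backgrounds were divided by this ratio and the Poisson tail was recomputed. Of the sites in new territory, 3280 (81.7%, exact binomial interval 80.4% to 82.8%) then reached the lowest −log10 p of the wild-type list, 3.79, beside 82.7% of nearby and 95.7% of shared sites. At the wild-type median of 8.46, 357 (8.89%, 8.02% to 9.81%) passed, beside 10.4% of nearby and 44.4% of shared sites. Scaled reads had a median of 8.86 in new territory, 9.45 at nearby sites and 13.6 at shared sites, against 13 reads in the wild-type list itself. Reaching the lowest wild-type p is a weaker demand than being called at wild-type depth, and how many of these sites a deeper wild-type library would show was not tested.

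The strongest site in new territory was intergenic, at chromosome 20, 23856128 to 23856672, 19.5 kb from CST5, the gene of a secreted cysteine protease inhibitor. It had 28 reads, a fold of 12.9 and a −log10 q of 23.5, and its nearest wild-type midpoint was 124 kb away. By q it ranked 95 among the 9277 double-knockout sites on chromosomes 1 to 22 and X. Next came sites inside TRMT44, a tRNA methyltransferase gene (chromosome 4, 8487263 to 8487743, 30 reads, −log10 q 23.2), and FXYD6, which encodes a regulator of the sodium-potassium pump (chromosome 11, 117874982 to 117875550, 32 reads, fold 11.2). A site in HDAC8, a histone deacetylase gene on X, had 33 reads and a fold of 10.0, and a site in RGL1, which encodes an exchange factor for Ral, had 32 reads and a fold of 9.73. The site on chromosome 10, 29998004 to 29998553, 14.5 kb from the endothelial junction gene JCAD, had 27 reads and a fold of 11.1.

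Of these first 10 sites, the one in RIMS1 was the most remote. RIMS1 encodes a scaffold of the presynaptic release zone, and the site (chromosome 6, 72112154 to 72112698, 25 reads, fold 11.5) was 3019 kb from wild type. GMPR, the gene of GMP reductase, held a site with 33 reads and a fold of 8.97. Both remaining sites were on chromosome 18. The site inside GALNT1, whose product starts O-linked glycosylation, had 31 reads and a fold of 9.28, and the intergenic one at 35847858 to 35848221 had 35 reads and a fold of 8.60.

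The widest site in new territory covered 2042 bp of SNX8, a sorting nexin gene (chromosome 7, 2314777 to 2316818), with 24 reads at its summit and a fold of 6.16. It was followed by an intergenic site of 1675 bp 5.85 kb from SCIMP and a site of 1612 bp in MAOA, the gene of monoamine oxidase A on X. The MAOA site had 28 reads, a fold of 9.87 and no wild-type midpoint within 3650 kb. A site of 1534 bp in the receptor phosphatase gene PTPRS and an intergenic one of 1425 bp 22.9 kb from COPS7B completed the first 5.

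Distance from the wild-type list chose these sites, so what follows on distance describes them. The median distance to the nearest wild-type midpoint was 392 kb (quartiles 199 kb and 901 kb). Beyond 500 kb lay 1654 sites (41.2%), beyond 1000 kb 917 (22.8%) and beyond 5000 kb 107 (2.66%). The sites just inside the limit were at 100087 bp (chromosome 1, 36331016 to 36331325, fold 4.72, 15 reads), 100212 bp and 100216 bp. Just outside it were knockout-only sites at 99954.5 bp (chromosome 5, 141871977 to 141872278, fold 5.65, 16 reads), 99828.5 bp and 99782.5 bp.

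Number per length went on declining with distance well past the limit. New territory made up 2392 Mb of the 2856 Mb of annotated chromosome (83.8%), and the 4012 sites inside it came to 1.68 per Mb (exact Poisson interval 1.63 to 1.73). The other 464 Mb, near wild-type sites, held 11.2 other double-knockout sites per Mb. Knockout-only sites numbered 9.75 per Mb within 10 kb of a wild-type midpoint and 4.35 per Mb at 50 to 100 kb. In new territory they numbered 3.48 per Mb at 100 to 200 kb, 2.53 at 200 to 500 kb, 1.64 at 500 to 1000 kb, 1.08 at 1000 to 2000 kb, 0.710 at 2000 to 5000 kb and 0.501 beyond 5000 kb. The decline passed through 100 kb with no step.

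Reads and background changed with distance too. The median of the summit reads was 15 at 100 to 200 kb and 12 beyond 5000 kb, and that of the background was 2.41 and 1.59. The median fold was 4.67 and 4.89, on the scale that adds 1 to reads and background, so the most remote sites had fewer reads on a lower background. The part of the lower background in these numbers was not tested.

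**Figure D2:**
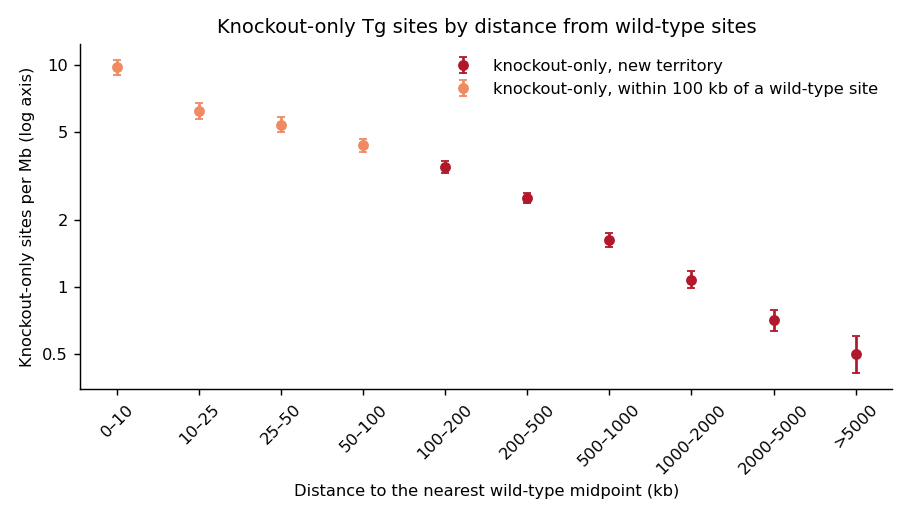
Knockout-only Tg sites per Mb (log axis) by distance to the nearest wild-type midpoint (kb), with exact 95% Poisson intervals that cover counting error only; colours separate sites within 100 kb of a wild-type site from those in new territory. The values go down from 9.75 per Mb within 10 kb to 3.48 per Mb at 100 to 200 kb and 0.501 per Mb beyond 5000 kb, with no break at 100 kb.

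The most remote sites lay in a few long stretches of chromosomes 14 and 15 that the wild-type list leaves empty. The farthest (chromosome 14, 39447200 to 39447494, 10 reads, fold 4.89) was 14967 kb from a wild-type midpoint, in a long non-coding RNA gene 14.9 kb from FBXO33. On chromosome 15, PLA2G4E and PLA2G4F, neighbouring genes of cytosolic phospholipases A2, each held a site, at 12958 kb and 12849 kb. The PLA2G4F site had 16 reads and a fold of 5.01, and the PLA2G4E site 8 reads and a fold of 3.47. A site 3.24 kb from VPS18, which encodes a subunit of the lysosomal tethering complexes, had 15 reads and a fold of 7.11 at 11976 kb. A site in RALGAPA1 on chromosome 14, the gene of a Ral GTPase-activating subunit, had 19 reads and a fold of 6.17 at 11250 kb.

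Between neighbouring wild-type midpoints there were 1755 stretches longer than 200 kb, and 1148 (65.4%) held at least 1 site in new territory. The largest number, 28 sites, lay in 32.0 Mb of chromosome 14 (24480823 to 56473644), which is 0.875 per Mb. Much denser were 20 sites in 3.03 Mb of chromosome 9 (33731488 to 36764087, 6.60 per Mb) and 17 sites in 1.06 Mb of chromosome 1 (32881294 to 33939022, 16.1 per Mb). Of the 623 stretches over 1 Mb, 58 held none, the longest being 5.78 Mb of chromosome 4 (140288699 to 146067937). New territory was thus filled unevenly.

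Chromosome 19 had the most sites for its new territory, 5.78 per Mb (4.94 to 6.71), followed by chromosome 22 with 3.86 (3.09 to 4.76), chromosome 20 with 3.31 (2.80 to 3.88) and chromosome 1 with 2.63 (2.39 to 2.88). Chromosome 4 had the fewest, 0.650 per Mb (0.535 to 0.782), below chromosome 18 with 1.09 and chromosome 8 with 1.13. Seen as a share of the double-knockout sites of a chromosome the order was another. New territory held 61.0% of them on chromosome 3, 59.6% on chromosome 13, 54.8% on chromosome 14 and 52.7% on X, and 28.1% on chromosome 19 and 27.5% on chromosome 22. Chromosomes 3, 13 and 14 have few wild-type sites, and 90.2%, 87.4% and 88.3% of their length was new territory, beside 53.8% for chromosome 19. Chromosomes 4, 8 and 18 had similar lengths of it, 91.7%, 89.3% and 88.8%. Their shares of sites were lower, 44.0%, 46.4% and 45.6%, beside 43.3% over all chromosomes. Across the 23 chromosomes, sites per Mb of new territory went with wild-type sites per Mb (Spearman's rho 0.868, Pearson's r 0.909). The chromosomes share their libraries, gene content and the uneven copy number of this line, for which no correction was made, so this is a description.

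**Figure D3:**
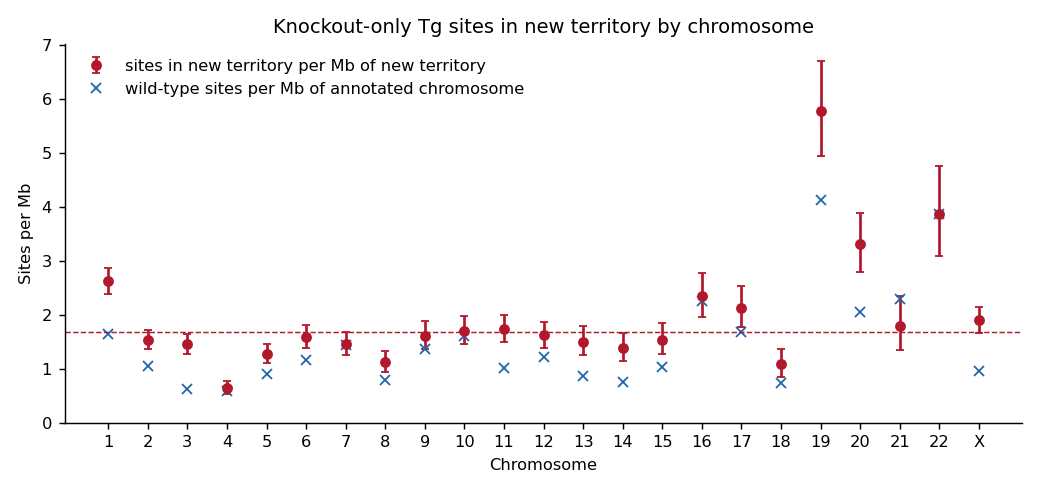
Knockout-only sites per Mb of new territory (filled points, exact 95% Poisson intervals for counting error only) and wild-type sites per Mb of annotated chromosome (crosses), by chromosome; the dashed line is the value over all chromosomes, 1.68 per Mb. Chromosome 19 stands highest in both, at 5.78 and 4.12 per Mb, and chromosome 4 lowest in both, at 0.650 and 0.585 per Mb.

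Sites in new territory were more numerous where genes were. Windows of 1 Mb with 0 protein-coding genes held 0.608 per Mb of new territory, those with 1 to 2 held 1.01, 3 to 5 held 1.62, 6 to 10 held 2.07, 11 to 20 held 2.70 and over 20 held 3.59 (3.28 to 3.93). At a like gene density, sites were still fewer far from wild type. In windows with over 20 genes they numbered 5.34 per Mb at 100 to 200 kb and 1.75 beyond 1000 kb, and in windows with 1 to 2 genes 2.89 and 0.483. The decline held at each step in every class but that of 0 genes, which had 1.49 per Mb at 100 to 200 kb and 1.69 at 200 to 500 kb.

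By part of the gene, the shares of sites differed somewhat from the shares of length in new territory, by the largest ratio at gene edges. Bodies of protein-coding genes held 46.1% of them (44.6% to 47.7%), in 42.1% of the territory, and intergenic sequence 37.0% (35.5% to 38.5%), in 41.1%. Other genes, mostly long non-coding RNA genes and pseudogenes, held 13.3%, in 14.6%. Gene edges, the 1 kb on both sides of where a protein-coding gene starts or stops, held 3.56% (3.01% to 4.19%), in 2.28%, a ratio of 1.56. At nearby knockout-only and shared sites that ratio was 0.956 and 0.833 relative to their own zone. The share of sites at edges was similar there, 3.72% and 3.24%, but edges covered 3.89% of that zone. The difference in ratio thus went with how much of each zone was edge. Sites in new territory had about the same strength wherever they lay, with a median of 16 reads at edges and 15 in gene bodies, other genes and intergenic sequence.

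The numbers were highest between 0.25 and 1 kb from a gene start and lower at the start itself. Within 0.25 kb of the nearest protein-coding start lay 10 sites, 1.32 per Mb of new territory (0.633 to 2.43). From 0.25 to 0.5 kb there were 28, 4.12 per Mb (2.73 to 5.95), and from 0.5 to 1 kb 53, 4.07 per Mb (3.05 to 5.32). Farther out the numbers were 2.75 per Mb at 2 to 5 kb, 2.03 at 20 to 100 kb and 0.420 beyond 500 kb. Nearby knockout-only sites had 1.22 per Mb of their zone within 0.25 kb (3 sites) and 11.3 at 0.5 to 1 kb, and shared sites 0.816 (2 sites) and 9.86. Each class was thus lower at the start than at 0.5 to 1 kb. Relative to length, the ratio within 0.25 kb was 0.787 in new territory, 0.215 at nearby and 0.148 at shared sites. The interval in new territory held the 1.68 per Mb over all new territory.

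**Figure D4:**
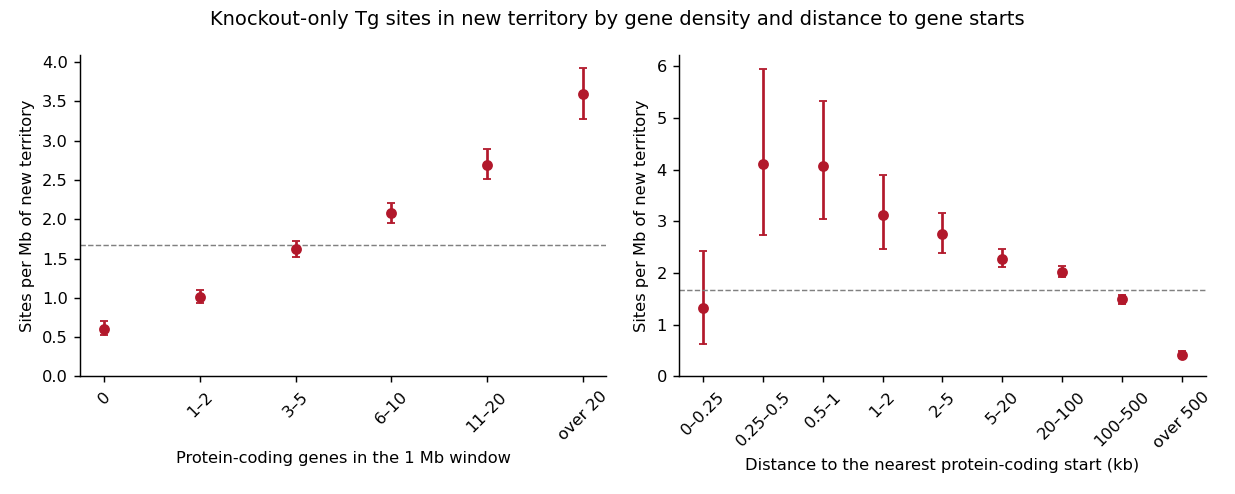
Knockout-only sites per Mb of new territory by the number of protein-coding genes in the 1 Mb window (left) and by distance to the nearest protein-coding start in kb (right), with exact 95% Poisson intervals for counting error only; the dashed line is 1.68 per Mb, the value over all new territory. On the left the values go up from 0.608 to 3.59 per Mb, and on the right they are highest at 0.25 to 1 kb (4.12 and 4.07) and 1.32 within 0.25 kb.

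Few of the sites were near chromosome ends. The end of a chromosome was taken as its outermost annotated gene or site, and 7.18% of the sites in new territory (6.40% to 8.02%) lay within 5 Mb of it, beside 23.9% of nearby knockout-only and 30.7% of shared sites. End regions made up only 4.88% of new territory and 20.4% of the zone near wild-type sites, so relative to length the ratios were 1.47, 1.17 and 1.51. The low share in new territory therefore went with how little of it lies there.

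Distances between sites in new territory were taken between midpoints. The median distance to the nearest other such site was 120 kb, 46.0% (44.5% to 47.6%) had another within 100 kb and 7.99% had another within 5 kb. What their uneven number per Mb alone would give was not computed, so these values are not called clustering. Joined where neighbours were within 100 kb, 2168 sites stood alone, 443 chains had 2 sites and 144 had 3. The longest had 10 sites in 318 kb of chromosome 1, in a stretch with AZIN2, ZNF362, TRIM62 and A3GALT2, with a median of 21 reads and no wild-type midpoint within 119 kb. AZIN2 encodes an inhibitor of the antizymes that control polyamine synthesis. In the window from 33000001 to 34000000 of this chromosome, 17 of the 22 double-knockout sites were in new territory, and wild type had 1 site.

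Chains of 9 sites lay on chromosome 19 (9962386 to 10105509), from the collagen gene COL5A3 to ANGPTL6, on chromosome 1 (43907385 to 44072373), from the sialyltransferase gene ST3GAL3 to KLF17, and on chromosome 9 (34522440 to 34777373), around CNTFR, GALT, IL11RA and the chemokine genes CCL19, CCL21 and CCL27. On chromosome 19, 8 sites fell within 47.4 kb (35105328 to 35152724) over FXYD3, FXYD1 and FXYD7, small membrane proteins that adjust the sodium-potassium pump, and LGI4, a secreted protein of myelinating glia. Also on chromosome 19, 7 sites spanned the cytochrome P450 genes CYP2A6, CYP2A7, CYP2B6 and CYP2A13, which serve in drug and nicotine metabolism. On chromosome 22, 8 sites spanned the neighbouring β-crystallin genes CRYBA4 and CRYBB1. The tightest of the long chains was inside COPG2, with 6 sites in 18.0 kb. Medians within these chains ran from 14 to 19 reads, close to the 15 reads over all sites in new territory.

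The chains and windows also reached stretches with no wild-type site at all. On chromosome 20, from 20000001 to 21000000, all 12 double-knockout sites were in new territory, among them sites in CFAP61, a cilium gene, and RALGAPA2. On chromosome 9, from 35000001 to 36000000, all 11 were, among them sites in UNC13B, a vesicle priming gene, CA9, the hypoxia-linked carbonic anhydrase, and TLN1, the gene of the integrin-binding protein talin.

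At least 1 site in new territory had its midpoint in the body of 1510 of 19974 protein-coding genes (7.56%). At least 3 were held by 94 genes (0.471%). Of the 1510 genes, 1388 (91.9%) held no wild-type site and 1360 neither a wild-type nor another double-knockout site. Over all 19974 protein-coding genes only 1179 held a wild-type site, so lacking one is not particular to the 1510 genes. In a gene shorter than 100 kb the rule itself leaves no room for a wild-type midpoint, so the share of 91.9% says little for short genes. Genes with a site were long, with a median length of 116 kb beside 24.2 kb over all protein-coding genes. Genes over 300 kb held one in 40.6% of cases and genes up to 10 kb in 1.24%. Per Mb of new territory inside genes the order was the reverse, with 3.98 sites per Mb in genes up to 10 kb (3.12 to 5.00), 2.11 in genes of 30 to 100 kb and 1.39 in genes over 300 kb (1.27 to 1.51).

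PTPRT, a receptor-type protein tyrosine phosphatase gene (chromosome 20, 42031890 to 43189906), held the most sites in new territory, 8, and no wild-type site. By their order along the gene, their summit reads were 8, 15, 21, 13, 12, 11, 12 and 14. The site at 42654129 to 42654561, with 21 reads and a fold of 7.76, stood out, and the one at 43178519 to 43178866 had a fold of 6.66. The rate of new territory on chromosome 20 would give 3.83 sites over its 1158 kb, within the counting interval of 8 (3.45 to 15.8).

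DAB1, the adaptor of reelin signalling in neuronal migration, and RBFOX1, a regulator of splicing in neurons and muscle, held 7 each. DAB1 (chromosome 1, 56994778 to 58546726) also held 1 wild-type and 1 shared site. Its sites in new territory had 12 to 26 reads, with the highest fold, 7.55, at 57531037 to 57531535. RBFOX1 (chromosome 16, 5239721 to 7713340) held 4 nearby and 3 shared sites as well, and 5 wild-type sites. Its sites in new territory had 9 to 20 reads, the nearest of them 120 kb from a wild-type midpoint. The rates of their chromosomes would give 3.55 and 3.71 sites in the new territory of DAB1 and RBFOX1.

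COL5A3, COPG2 and RALGAPA2 held 6 each and no other site of either list. COL5A3 (chromosome 19, 9959561 to 10010504), which encodes the α3 chain of type V collagen, is 50.9 kb long, and its chromosome's rate would give 0.294 sites. The summit reads of its sites were 10, 13, 22, 25, 19 and 26 along the gene, with folds from 3.99 to 6.21. The nearest wild-type midpoint was 104 kb away, close to the limit of the rule. COPG2 (chromosome 7, 130506238 to 130668748), a subunit of the COPI vesicle coat, had sites of 12, 11, 15, 22, 15 and 13 reads, and the 22-read site had a fold of 7.86.

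RALGAPA2 (chromosome 20, 20389530 to 20712644), which encodes the catalytic subunit of a Ral GTPase-activating complex, had sites of 10 to 20 reads. Its strongest, at 20648573 to 20649028, had a fold of 9.33 on the lowest background of the list.

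Genes with 5 sites were DCHS1, WDFY4, CUX2, LDLRAD4, ZNF536, AGAP1, CLSTN2, CSMD2, THSD4, CACNA1C and RGS6. DCHS1, a giant cadherin of planar cell polarity, is 34.5 kb long, and its sites at 6642826 to 6654794 of chromosome 11 had 11, 17, 19, 16 and 19 reads. CUX2, a homeobox gene of upper-layer neurons, held a site with 30 reads and a −log10 q of 14.5, the strongest among these genes. CSMD2 also held 5 nearby sites, 1 shared site and 1 wild-type site, and CACNA1C, the pore subunit of the cardiac L-type calcium channel, 2 shared and 2 wild-type sites. RGS6, a regulator of G-protein signalling, had its nearest wild-type midpoint 1130 kb from its sites. CNTFR, NBDY, RTL9, CRTC3, PTPRS, EDARADD and ZNF362 held 4 each, with no wild-type site. Of the 25 genes with the most sites, 20 held no wild-type site. In those shorter than 100 kb, COL5A3, DCHS1, CNTFR, NBDY and RTL9, the rule itself left no room for a wild-type midpoint. In the longer ones it cleared the 100 kb on both sides of each site. Wild-type sites were present in only 1179 of all 19974 genes, so lacking them does not set these 25 apart.

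**Figure D5:**
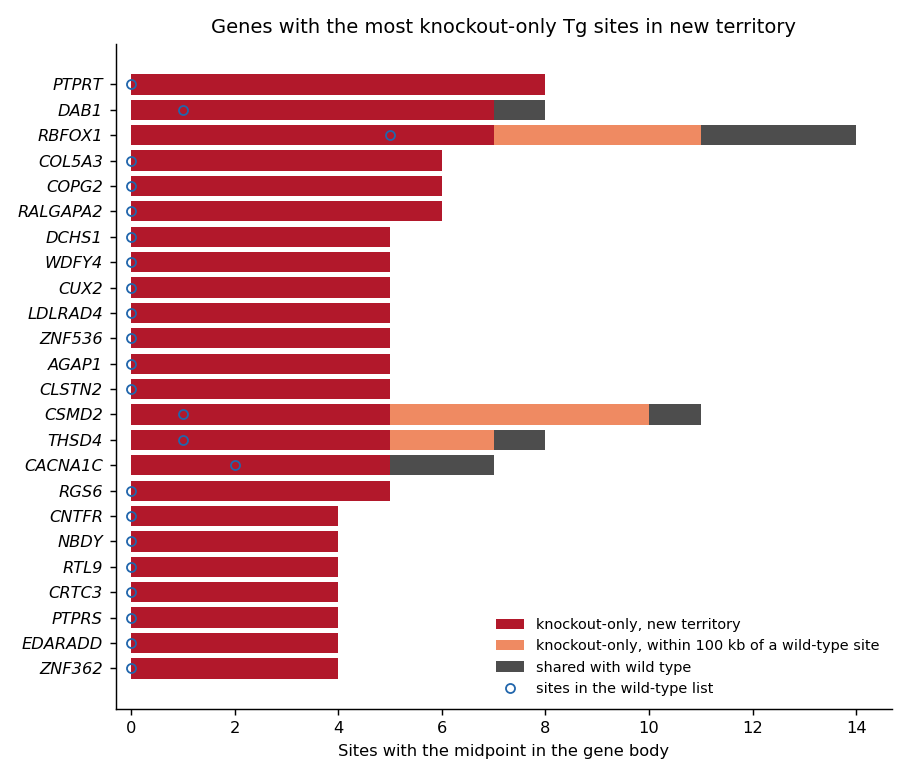
Number of double-knockout sites with the midpoint in the gene body for 24 of the 25 protein-coding genes with the most knockout-only sites in new territory, split into sites in new territory, knockout-only sites within 100 kb of a wild-type site and shared sites; open circles give the number in the wild-type list. PTPRT leads with 8 and no wild-type site, and RBFOX1 combines 7 sites in new territory with 5 wild-type sites.

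Per length, FXYD1, the gene of phospholemman, came first among genes with at least 3 sites, with 3 in 5.92 kb (50.7 per 100 kb). They lay within chromosome 19, 35137341 to 35141208, with 15, 16 and 17 reads and folds of 5.01, 4.79 and 4.75. DCHS1 followed with 14.5 per 100 kb and COL5A3 with 11.8. CNTFR, the receptor of ciliary neurotrophic factor, had 10.1 per 100 kb, with 18, 15, 15 and 19 reads at its sites. MKI67, which encodes the proliferation antigen Ki-67, had 3 sites with 16, 18 and 15 reads (10.1 per 100 kb). CRYBA4 (7.42), NBDY (4.45), LRRN2 (4.38), RTL9 (4.10) and FAM227A (3.83) completed the first 10. The numbers of sites behind these densities are small, from 3 to 6 a gene.

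Among genes of DNA glycosylases and base excision repair, 3 of 24 held a site in new territory. This share of 12.5% (2.66% to 32.4%) stands beside the 7.56% of all protein-coding genes, which lies within its interval. SMUG1, a glycosylase that removes uracil, held 2, with 17 and 23 reads, 665 kb from wild type. APEX2, an abasic-site endonuclease gene on X, held 1 with 15 reads, and LIG1, a DNA ligase that seals repaired nicks, held 1 with 13 reads. Per Mb of their new territory this is 7.99 sites (2.18 to 20.5), beside 1.87 over all protein-coding genes, and it rests on 4 sites. The median length of the listed genes was 16.0 kb. All genes of 10 to 30 kb had 2.95 sites per Mb, within the interval of the list. Of 26 NRF2 and antioxidant genes 2 held one (7.69%). GCLC, the catalytic subunit of the enzyme that starts glutathione synthesis, held 2 with 11 and 21 reads, and PRDX5, a peroxiredoxin, held 1 with 27 reads and a fold of 7.07.

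Of the ion channel and receptor lists, voltage-gated calcium channels had the most sites per length. They held 13 in 4 of 18 genes, 5.20 per Mb (2.77 to 8.88), with 5 in CACNA1C, 4 in CACNA1E, 3 in CACNA2D3 and 1 in CACNB1. The rate rests on 2.50 Mb of new territory, and 10 of the 18 genes held a wild-type site. CACNA1C and CACNA1E encode pore subunits, and CACNA2D3 and CACNB1 auxiliary subunits. Sites in CACNA1E had 10 to 23 reads beside 4 wild-type sites in the same gene. Voltage-gated potassium channels held sites in 4 of 40 genes (1.17 per Mb), with 2 in KCND3, and glutamate receptors in 7 of 26 (1.00 per Mb), with 2 in GRIN2A. Receptor tyrosine kinases held sites in 11 of 53 genes (1.68 per Mb), with 2 in NTRK3, the receptor of neurotrophin-3. Receptor-type protein tyrosine phosphatases held 16 in 6 of 20 (2.19 per Mb), 8 of them in PTPRT and 4 in PTPRS. These lists thus ran on both sides of the 1.87 per Mb of all genes. Over all protein-coding genes 7.56% held a site, with 7.75% of genes of 30 to 100 kb and 40.6% of genes over 300 kb. The median lengths of these lists ran from 39.8 kb for potassium channels to 315 kb for glutamate receptors.

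Collagen chains held 19 sites in 13 of 44 genes (29.5%, 16.8% to 45.2%), beside 7.56% of all protein-coding genes. Their median length was 145 kb, and of all genes of 100 to 300 kb 19.6% held a site. Per Mb collagen genes had 3.45 sites (2.08 to 5.38), beside 1.87 over all genes and 1.90 in genes of 100 to 300 kb. Of the 19 sites, 6 were in COL5A3 on chromosome 19, where new territory had 5.78 per Mb. COL23A1 held 2, with 26 and 27 reads. COL12A1, whose product coats collagen fibrils, held 1 with 24 reads 4992 kb from wild type. Classical cadherins and protocadherins held sites in 8 of 88 genes (9.09%, 1.16 per Mb). CDH2, the gene of N-cadherin, held 2 with 8 and 16 reads, 1342 kb from wild type. Solute carriers held 46 sites in 39 of 379 genes (10.3%, 2.28 per Mb), with at most 2 in a gene. The share of solute carrier genes, with a median length of 36.3 kb, was near that of all genes. The cadherin genes had a median length of 117 kb. Their share (4.01% to 17.1%) was near that of all genes but below the 19.6% of genes of 100 to 300 kb. The interval of their sites per Mb (0.580 to 2.08) held the 1.90 of that length class.

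Long genes at common fragile sites, stretches that break under replication stress, held 47 sites in 19 of 30 genes (63.3%), but 1.27 per Mb (0.930 to 1.68). Their median length was 1375 kb, and the high share of genes went with that length. PARD3B, a cell polarity gene, held 4 with 9 to 15 reads, all over 4174 kb from wild type. Zinc finger genes of chromosome 19 held 22 sites in 17 of 240 genes, 4.07 per Mb (2.55 to 6.16), beside 5.78 per Mb for the new territory of that chromosome, and 5 of the 22 were in ZNF536. Olfactory receptor genes held sites in 8 of 392 (2.04%), 2.66 per Mb. Among HOX genes, HOXA3 and HOXA6, which overlap, held 1 site of 15 reads. Replication-dependent histone genes held 0 sites in 69 genes, which allows up to 5.21% of genes (exact binomial), in only 0.116 Mb of new territory. No hairpin of the 1558 miRNAs on these chromosomes was overlapped by a site in new territory (0.0%).

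In some genes with many double-knockout sites, most of these lay outside new territory. FHOD3, a formin gene of muscle sarcomeres, held 4 in new territory, 9 nearby and 1 shared site, against 1 in wild type. SORCS2, a sortilin-family receptor gene, held 1, 10 and 3, against 3 in wild type. PTPRN2 and CDH4 held 0 in new territory, with 12 and 6 nearby sites, 17 and 14 shared sites, and 24 and 15 wild-type sites.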

How the data were processed

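For each genotype the authors deposited 1 headerless list of sites, matched to its genotype by the word that its name shares with the library titles. Tools named per the submitters' processing notes are Bowtie2, MACS2, bedtools and deepTools, and the build is hg38. Versions, settings and roles, the way in which the 2 libraries were merged, and the control used in calling were not given in the sources used here. The deposited score was 10 times the −log10 q, rounded down. The deposited fold enrichment is a ratio, found from the values to be reads at the summit plus 1 over background plus 1, and the deposited −log10 p and −log10 q are the caller's. The largest q was 0.0489 in the double-knockout list and 0.0450 in the wild-type list. These are the authors' values. They were used within their own list, except that depth-scaled double-knockout sites were set against the −log10 p and the reads of the wild-type list.

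Whole reads and background were recovered from fold and −log10 p as a Poisson tail. A whole number gave the deposited p within 0.001 at 100% of sites of both lists, and the recovery was tested on simulated data. Depth per library is unknown. The lowest background, which moves with depth, had a double-knockout to wild-type ratio of 1.69, or of 1.61 per bp of the narrowest site (256 bp and 243 bp). Intervals are exact Poisson or binomial (Clopper-Pearson) at 95% and cover counting error only, since amplified reads are not independent molecules.

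No genome sequence was used. Annotated chromosome means the span between the outermost genes or sites, less 27 stretches of over 2 Mb with no gene (174 Mb in all, with 5 sites in new territory). Genes and promoter windows came from RefSeq tables of GRCh38.p14, whose primary coordinates are those of hg38. Promoter windows covered 15812 protein-coding genes, some with several starts. A site was counted by its midpoint and in a promoter by its summit. An overlap needed 1 bp. The 96 double-knockout sites on other sequences were left out.

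The text names the 25 protein-coding genes with the most sites in new territory (ties by sites per 100 kb), the 10 with the most per 100 kb among genes with at least 3, up to 4 genes a list from 15 gene lists, the 10 sites with the lowest q, the 10 farthest from wild type, the 5 widest, the richest 1 Mb windows, the largest chains and the promoter sites. From these, examples are described, and some named items are not reported here. NTHL1, NEIL1, FHOD3, SORCS2, PTPRN2 and CDH4 were added because earlier results of these data had named them or they were knocked out. The members, the rule and the gene lists were chosen with earlier results of these data known. With 1 list per genotype there was no replicate and no test. Python 3.11.15, numpy 2.4.6, pandas 2.3.3, scipy 1.17.1 and matplotlib 3.10.9 were used.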

Additional observations from a re-analysis of the deposited data

How the results depend on the processing

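Of 40 recomputed values, 19 stayed within their counting interval or within 1.5 times the count and 21 did not. With the limit at 500 kb, 1654 sites remained, with a median fold of 4.89 and 14 reads. With a −log10 q of at least 5 there were 2009 sites, 0.839 per Mb, 51.4% in or at protein-coding genes, 31.6% with another within 100 kb, and 873 genes. Without sites whose background was over 2 times the lowest there were 2493, with a median fold of 5.04 and 13 reads. With limits of 50 kb and 200 kb, sites per Mb were 1.88 and 1.43 and the shares near ends 9.24% and 5.35%. At 200 kb 42.7% had a neighbour within 100 kb. Shares near ends were 1.52% within 1 Mb and 16.8% within 10 Mb, and shares with a neighbour were 32.2% within 50 kb and 60.9% within 200 kb. At the wild-type median p, 357 sites passed at wild-type depth. With 1 site per 100 kb, 3003 sites and 1340 genes were left. Each of these settings changes the number of sites or a limit by construction. Summits of 15 reads at the median set the precision of single sites. No paired analysis was possible because each genotype has 1 list with no values per library.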
